A study of Mus musculus with 6 samples.

Results

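Newly assembled noncoding transcripts are RNAs that the authors' processing built from the reads of these thymus libraries and listed beside the annotated long noncoding RNAs. They were taken as the rows of the deposited lncRNA table whose identifier starts with TCONS and that carry a value in all 6 libraries. The rule found 643 of 53001 transcripts, and the same 643 carry the authors' own status of a new noncoding transcript. They belong to 460 gene or locus identifiers. Of the members, 497 were filed under 365 Ensembl protein-coding genes and 146 under 95 loci with an XLOC identifier, which have no Ensembl gene.

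The thymuses came from C57BL mice aged 5 weeks, 3 unexposed controls and 3 mice killed 24 h after 6 Gy of X-rays. The titles call the controls WT and the irradiated mice IR, and the labels name no transgene or drug. Polyadenylated RNA of whole frozen thymus was measured, so cells of every type in the organ contribute. Abundance is in FPKM, fragments counted on a transcript scaled for its length and for the depth of the library, with 1 value per transcript and library. The labels speak of 3 mice per group without tying a library to a mouse, and the p-values below cover no more than the variation among these 6 libraries.

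Long noncoding RNAs are transcripts without a recognised protein product. They are grouped by their place: within a gene on the same strand, on the opposite strand of a gene (antisense), or between genes. An assembler joins overlapping reads into transcript models, and a model on the strand and in the introns of a gene can be a separate RNA, an isoform that keeps an intron or RNA not yet spliced. Models from repeated sequence can share reads with near-identical copies elsewhere. In the thymus, cortical thymocytes carrying both CD4 and CD8 are the most abundant cells, and ionising radiation is known to kill them within a day.

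The members' first bases were set against RefSeq promoter windows, which run from 250 bases before to 50 bases after a gene's start on GRCm38.p6. In 91 members (14.2%) the 5′ end fell in a window of the same strand, against 21.8% of the annotated transcripts of the table, and in 83 members it lay within 50 bases of the RefSeq start. Of those 83, 75 were tested, and 6 rose and 22 fell after irradiation by the test described below, by which 9.15% of all transcripts tested rose and 15.6% fell. The 4 largest increases and the 4 largest decreases among them, 1 per locus, are shown because they tie a member to an annotated start. Gm12216, Gm21188, C330020E22Rik and Mitf head the members that rose. Gm39821, C330026H20Rik, Gm35813 and Mcu head those that fell. Each window is printed 5′ to 3′ on the gene's strand, and capitals mark the bases from the member's first base to the window's end; exon bounds of the members were not used here.
Gm12216: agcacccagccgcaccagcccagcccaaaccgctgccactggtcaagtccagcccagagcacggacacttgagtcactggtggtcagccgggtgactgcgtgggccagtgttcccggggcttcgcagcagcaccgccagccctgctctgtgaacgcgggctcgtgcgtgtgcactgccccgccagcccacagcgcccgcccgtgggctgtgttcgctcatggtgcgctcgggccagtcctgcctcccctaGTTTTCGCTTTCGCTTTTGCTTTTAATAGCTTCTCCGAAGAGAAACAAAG
Gm21188: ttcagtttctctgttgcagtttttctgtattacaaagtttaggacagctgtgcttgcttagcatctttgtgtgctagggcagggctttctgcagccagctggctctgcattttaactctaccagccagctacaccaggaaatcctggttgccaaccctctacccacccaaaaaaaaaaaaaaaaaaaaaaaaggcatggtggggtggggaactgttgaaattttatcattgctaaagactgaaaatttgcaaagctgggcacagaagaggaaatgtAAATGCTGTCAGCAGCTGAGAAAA
C330020E22Rik: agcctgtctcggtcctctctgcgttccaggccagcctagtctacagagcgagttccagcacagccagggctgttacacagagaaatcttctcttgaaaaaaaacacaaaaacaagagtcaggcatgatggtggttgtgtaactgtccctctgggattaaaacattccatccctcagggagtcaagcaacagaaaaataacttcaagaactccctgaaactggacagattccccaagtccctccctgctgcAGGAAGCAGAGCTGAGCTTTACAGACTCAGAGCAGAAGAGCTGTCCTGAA
Mitf: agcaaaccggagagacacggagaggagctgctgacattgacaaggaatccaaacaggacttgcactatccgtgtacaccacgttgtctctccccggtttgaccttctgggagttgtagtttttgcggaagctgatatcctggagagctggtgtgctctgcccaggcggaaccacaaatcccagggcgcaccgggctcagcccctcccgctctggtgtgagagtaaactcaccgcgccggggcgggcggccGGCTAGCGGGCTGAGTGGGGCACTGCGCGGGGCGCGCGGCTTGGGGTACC
Gm39821: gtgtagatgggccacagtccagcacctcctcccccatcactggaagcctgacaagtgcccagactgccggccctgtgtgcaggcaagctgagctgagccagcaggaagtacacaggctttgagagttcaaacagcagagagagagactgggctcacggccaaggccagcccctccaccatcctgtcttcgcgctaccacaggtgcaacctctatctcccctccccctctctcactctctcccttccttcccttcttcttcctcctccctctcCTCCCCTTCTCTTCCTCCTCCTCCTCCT
C330026H20Rik: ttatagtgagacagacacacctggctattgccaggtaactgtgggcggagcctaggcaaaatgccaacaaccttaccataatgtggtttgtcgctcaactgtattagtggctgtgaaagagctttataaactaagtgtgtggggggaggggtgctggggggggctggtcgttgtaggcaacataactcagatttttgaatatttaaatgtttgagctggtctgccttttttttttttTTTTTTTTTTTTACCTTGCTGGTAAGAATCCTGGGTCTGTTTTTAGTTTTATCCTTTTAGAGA
Gm35813: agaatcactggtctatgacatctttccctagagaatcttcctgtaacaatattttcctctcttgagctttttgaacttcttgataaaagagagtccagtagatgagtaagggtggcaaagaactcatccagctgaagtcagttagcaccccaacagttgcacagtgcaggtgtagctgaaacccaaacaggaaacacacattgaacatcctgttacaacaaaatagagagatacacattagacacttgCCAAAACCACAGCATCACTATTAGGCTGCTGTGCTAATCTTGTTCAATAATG
Mcu: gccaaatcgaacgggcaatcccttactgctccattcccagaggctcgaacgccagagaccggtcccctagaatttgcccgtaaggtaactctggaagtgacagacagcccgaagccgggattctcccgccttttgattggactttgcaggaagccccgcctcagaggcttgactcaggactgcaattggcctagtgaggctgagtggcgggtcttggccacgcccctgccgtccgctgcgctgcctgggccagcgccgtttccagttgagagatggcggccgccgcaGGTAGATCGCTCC

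The windows lie at chr11:53859207-53859506 (Gm12216, minus strand), chr13:120052155-120052454 (Gm21188, minus), chr4:129382469-129382768 (C330020E22Rik, plus), chr6:97806808-97807107 (Mitf, plus), chr11:51883779-51884078 (Gm39821, plus), chr19:41011629-41011928 (C330026H20Rik, minus), chr2:79231035-79231334 (Gm35813, plus) and chr10:59616643-59616942 (Mcu, minus). The member began exactly at the RefSeq start at Gm12216, C330020E22Rik and Mitf. It began 26, 22 and 37 bases after the start at Gm21188, Gm39821 and Mcu, and 13 and 2 bases before it at C330026H20Rik and Gm35813. Letters of 3 common promoter motifs were searched on both strands, and none of the motifs contains another. TATAAA stood in 1 of the 8 windows, that of C330026H20Rik, and in 13.6% of all 32851 windows. CCAAT stood in 1 of the 8, that of Mcu, and in 37.4% of all windows. GGGCGG stood in 3 of the 8, those of Gm12216, Mitf and C330026H20Rik, and in 35.7% of all windows.

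Mitf encodes a transcription factor of melanocytes, osteoclasts and macrophages. Its member TCONS_00118577 had 0.281, 0.348 and 0.279 FPKM in the controls and 1.76, 1.504 and 2.06 FPKM in the irradiated libraries. All irradiated values lay above all controls, and the log2 fold change was 2.21 (SE 0.28, n = 3 and 3, adjusted p = 0.00359). TCONS_00018691, at the start of the RefSeq noncoding gene Gm39821, went the other way, from 2.74, 3.08 and 3.55 FPKM to 0.0177, 0.0958 and 0 FPKM. Its log2 fold change was -4.60 (SE 0.36, adjusted p = 0.000713), the largest of the 5 models of its locus that begin at this start. TCONS_00018687 and TCONS_00018689 also fell, at -3.14 and -2.30. TCONS_00018688 (-0.90, adjusted p = 0.169) and TCONS_00018692 (-1.93, adjusted p = 0.0536) did not pass. Gm39821, C330026H20Rik, Gm35813 and C330020E22Rik are RefSeq genes at members that overlapped no gene of the Ensembl-based GENCODE M21 annotation. In all, 26 of 132 such intergenic members overlapped a RefSeq gene of their own strand, a minimum because 22972 RefSeq genes had no strand in the tables used. Of the 23 of these that were tested, 2 rose and 11 fell, with a median log2 fold change of -1.51. Of the 97 tested intergenic members that overlapped none, 24 rose and 18 fell, with a median of 0.94. Shares over all transcripts tested were 9.15% higher and 15.6% lower, and neither intergenic class was tested against the other.

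By place in M21, 401 members lay on the same strand as the gene they were filed under, 83 on the strand opposite to it, 132 were intergenic and 27 lay on patch, alternative or unplaced sequence. Positions are on GRCm38, on which 99.91% of the table's transcripts found in M21 have the same start and end. Members spread over all chromosomes from 1 to 19, X and Y, with the most on chromosome 11 (67, or 10.4% of members against 6.33% of annotated transcripts) and chromosome 4 (53). Chromosome 3, with 14 members, held 2.18% of members and 4.80% of annotated transcripts. The 27 on other sequence were 4.20% of members, while 0 annotated transcripts of the table lay there. Of the same-strand members, 351 lay wholly inside their gene, 64 had both ends in annotated exons and 178 had neither end in one. Of the opposite-strand members, 56 overlapped only genes of the other strand and 27 also overlapped a gene of their own. Intergenic members lay a median of 7255 bases from the nearest M21 gene, at most 321942 bases, and 81 lay within 10 kb.

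The members were long models with few exons. Their median length was 4248 bases, against 760 for the annotated transcripts of the table, and 177 members (27.5%) were over 10 kb, against 0.0974% of annotated transcripts. Every member had 2 exons or more: 431 (67.0%) had 2, 96 had 3, 42 had 4 and 74 had 5 or more, while 7.08% of the annotated transcripts had 1 exon. The 3 longest were TCONS_00066611 in Slc8a1 (112675 bases), TCONS_00012527 in Btbd11 (102172 bases) and TCONS_00122958 in Foxp1 (84882 bases). These had 2, 2 and 5 exons. The models in Slc8a1 and Btbd11 left out 60 and 370 bases of the stretch they span, so they were almost unspliced. Among the same-strand members, 247 had at least 80% of their length outside annotated exons of their strand, with a median length of 12877 bases. This share is a minimum, the length less all annotated exon bases of that strand within the span. Members with a lower minimum can therefore lie outside exons too.

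**Figure D1:**
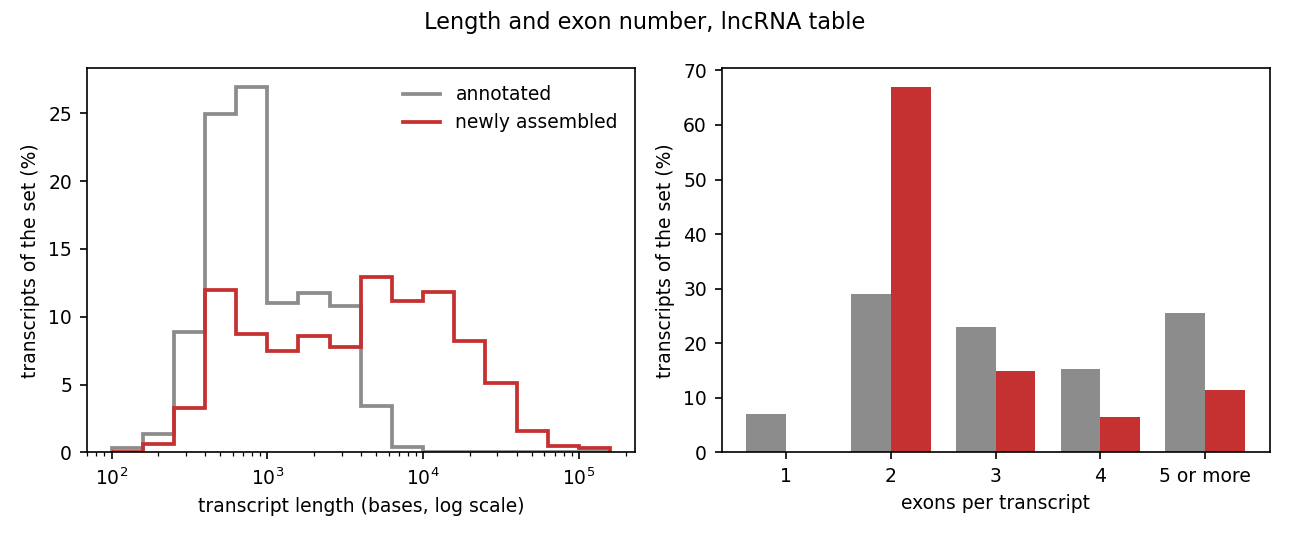
Length (left, bases on a log axis) and exon number (right) of the 643 newly assembled (red) and 52358 annotated (grey) transcripts, each as a percentage of its set. Annotated lengths peak below 1000 bases, the newly assembled reach past 10 kb, and 67.0% of the latter have 2 exons.

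The most exons were counted in TCONS_00036937, with 25 exons over 173877 bases at Cd180 on chromosome 13 (102732326 to 102906202, plus strand). Cd180 encodes a Toll-like receptor relative of B cells and macrophages, and the model also overlaps the noncoding 1700099I09Rik on the same strand and Mast4 on the other. It had the longest reading frame of all members, 2371 codons; the table's reading-frame value was read as codons because 3 times it never exceeded a transcript's length. It rose from 0.245, 0.217 and 0.240 FPKM to 1.08, 1.15 and 1.06 FPKM (log2 fold change 1.84, SE 0.28, adjusted p = 0.00632). TCONS_00145945, with 18 exons on the strand opposite to Gm20388, and TCONS_00137205, with 15 exons in Pdzd9, came next and did not pass. The latter was listed at 0 in 5 libraries and had 1.79 FPKM in irradiated replicate 3. The median reading frame of members was 152 codons, and 24 members exceeded 300. In 21 members the frame filled 90% or more of the length. Noncoding is the authors' label, and whether any of these frames is translated was not tested.

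Members were more abundant than the annotated transcripts of the table, a contrast that follows in part from how they were found. They were assembled from the reads of these libraries, while annotated transcripts were listed without that requirement. An average of at least 0.1 FPKM was reached by 93.3% of members and 57.3% of annotated transcripts. The median of the members' mean FPKM was 1.46, against 0.191 for annotated transcripts. Of the members, 421 (65.5%) were above 0 in all 6 libraries, against 50.4%. Another 25 were at 0 in every library and 26 were above 0 in 1 library. An average of at least 1 FPKM was reached by 416, of at least 10 by 28 and of at least 100 by 4. The 10 most abundant held 44.4% of the members' summed mean FPKM. Between 528 and 539 members were above 0 in each control and between 527 and 533 in each irradiated library. They made up 3.69%, 4.62% and 3.40% of the lncRNA table's summed FPKM in control thymus and 2.97%, 2.63% and 2.94% in irradiated thymus, so the groups did not overlap. Without the most abundant member that share was 2.89%, 4.10% and 2.85% against 1.95%, 2.53% and 2.87%, and the groups overlapped.

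Libraries were similar in depth, estimated from the smallest FPKM steps, such that 1 fragment on a 1 kb transcript was worth 0.0391 to 0.0456 FPKM. The irradiated libraries differed among themselves in markers of other cell types. Control libraries held 51.2 to 139 FPKM summed over 5 red cell markers, against 1.16, 7362 and 1197 FPKM in irradiated replicates 1, 2 and 3. For 7 airway markers it was 3.83 to 5.36 in the controls and 57.3, 3598 and 53.2, and for 6 fat markers 18.3 to 51.7 and 84.4, 1642 and 678. All 14 markers of double-positive thymocytes fell, from a summed 3336 to 3803 FPKM to 177 to 302 FPKM, while 8 of 8 macrophage, 6 of 6 fibroblast and 6 of 6 endothelial markers rose. The part of these cell types in the members' changes was not tested, and in whole tissue fewer cells of a type and less RNA per cell cannot be told apart.

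The comparison of irradiated with control thymus asked which members changed within a day of exposure. It was run with limma on log2(FPKM + 0.1) over all 30613 transcripts of the table averaging at least 0.1 FPKM, and passing means an adjusted p under 0.05 over all of them. Of the members, 600 entered the test, 18 were above 0 but under the minimum, and 25 were at 0 throughout. A log2 fold change on this scale understates the change of low transcripts. Of the 600, 90 rose and 164 fell, which is 15.0% and 27.3%. Among all transcripts tested, 9.15% rose and 15.6% fell, together 24.7%. The median log2 fold change was -0.60 over the members tested and -0.34 over all transcripts tested. Control and irradiated values did not overlap for 56.8% of the members tested, against 45.7% of all transcripts tested.

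The split of directions depended on scaling and on single libraries. It was 110 higher and 103 lower after median-ratio scaling and 109 and 98 after quantile normalization. After scaling to equal summed FPKM it was 105 and 119. Over all 30613 transcripts tested, these counts in the same order were 3823 and 2533, 2800 and 2496, and 3408 and 3001. Without such scaling they were 2802 and 4773. The median of all transcripts moved with these scalings from -0.34 to 0.04, -0.12 and -0.03. The number of members lower was 96, 80 and 78 without control replicates 1, 2 and 3. It was 105 and 103 without irradiated replicates 2 and 3 and 205 without irradiated replicate 1. Over all transcripts tested, the number lower was 1833, 1668 and 1659 without control replicates 1, 2 and 3. It was 2598 and 2455 without irradiated replicates 2 and 3 and 7109 without irradiated replicate 1. Of the 254 members called, 128 kept the call in all 6 fits that left out a library. The same count was not made over all transcripts tested, so it says nothing particular to the members. In the authors' deposited table, 84 members were higher and 87 lower at an adjusted p under 0.05 of the 617 with a value, against 4.87% and 2.29% of that table's transcripts. Of the calls by limma, 123 were called in the same direction in the authors' deposited table and 0 in the opposite one.

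Direction counts differed by place. Of 377 same-strand members tested, 36 rose and 110 fell, with a median log2 fold change of -0.75. These counts were 48 and 61 after median-ratio scaling, 46 and 56 after quantile normalization (median -0.28) and 44 and 74 after scaling to equal summed FPKM. The number lower was 58, 45 and 43 without control replicates 1, 2 and 3, 62 and 60 without irradiated replicates 2 and 3 and 141 without irradiated replicate 1. Of 80 opposite-strand members, 25 rose and 23 fell (median -0.43), of 120 intergenic members 26 and 29 (median 0.34), and of 23 on patch or unplaced sequence 3 and 2 (median 0.66). Same-strand members with a minimum of at least 80% outside annotated exons gave 23 higher and 79 lower of 234. Those with a lower minimum gave 13 and 31 of 143. Counts differed by length too: 6 rose and 24 fell of 67 members over 20 kb, while 23 rose and 17 fell of 91 members between 500 and 1000 bases. By exon number, 67 rose and 111 fell of 405 members with 2 exons, 8 and 32 of 89 with 3, 3 and 8 of 36 with 4, and 12 and 13 of 70 with 5 or more. Over all transcripts tested, 9.15% rose and 15.6% fell. The shares were 9.55% and 29.2% of same-strand, 31.25% and 28.75% of opposite-strand and 21.7% and 24.2% of intergenic members. Over 20 kb they were 8.96% and 35.8%, and between 500 and 1000 bases 25.3% and 18.7%. With 2, 3, 4 and 5 or more exons, 16.5%, 8.99%, 8.33% and 17.1% rose and 27.4%, 36.0%, 22.2% and 18.6% fell. These counts and shares describe the members, and no test set one class against another.

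The largest decreases lay in Chrna9 and Arpp21, in the chromosome 13 histone cluster and between genes. The 10 largest decreases and the 10 largest increases were taken from members whose groups did not overlap, so that separation in them follows from the choice. TCONS_00106980 lay within Chrna9, a nicotinic acetylcholine receptor subunit gene, at chromosome 5, 65934975 to 65944342, plus strand, with 2 exons and 6314 bases. It had 24.8, 30.3 and 39.8 FPKM in the controls and 0.230, 0.0589 and 0.158 FPKM in the irradiated libraries. Every irradiated value was far below every control, with a log2 fold change of -7.03 (SE 0.34, adjusted p = 0.000139). Chrna9 itself, without this member, had 47.7, 56.1 and 65.1 FPKM in the controls and 2.89, 1.92 and 1.17 FPKM after irradiation.

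Arpp21, whose product is a cyclic AMP-regulated phosphoprotein abundant in immature thymocytes and neurons, held 2 members that fell. TCONS_00154951 (3889 bases, chromosome 9, 112207672 to 112211586, minus strand) went from 27.8, 35.5 and 38.3 FPKM to 0.956, 0.0956 and 0.394 FPKM, a log2 fold change of -6.17 (SE 0.56, adjusted p = 0.00116). TCONS_00154949 spans it and more (29030 bases) and went from 15.2, 16.1 and 14.5 FPKM to 0.632, 0.0505 and 0.144 FPKM (log2 fold change -5.68, SE 0.54, adjusted p = 0.00129). In both, irradiated replicate 1 was the highest of its group. The rest of Arpp21 fell too, from 214 ± 20.9 to 4.72 ± 4.83 FPKM (mean ± SD over 3 libraries each, as in all such values below). Arpp21 is on the list of double-positive thymocyte markers, all 14 of which fell.

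Replication-dependent histone genes are expressed in S phase, and 9 members overlap genes of the Hist1 cluster on chromosome 13. They were short models (332 to 647 bases) stretched over spans of up to 291222 bases. All 9 were tested: 0 rose and 7 fell, with a median log2 fold change of -4.45. Over all transcripts tested, 9.15% rose and 15.6% fell. Hfe and Hist1h2bk hold 2 of these models each, and some overlap the same genes, so the 9 are not independent. The least share of their length outside annotated exons of their own strand had a median of 0%. TCONS_00037961 lies on the strand opposite to Hist1h3f and overlaps the protein-coding histone gene H2bc9 on its own strand. It had 136, 174 and 138 FPKM in the controls and 2.87, 0 and 2.11 FPKM after irradiation. That is a log2 fold change of -7.42 (SE 1.16, adjusted p = 0.00676), and the groups were far apart. TCONS_00034816 spans 183716 bases and is filed under Hfe, an iron-regulating gene within the cluster. It fell from 211, 246 and 182 FPKM to 28.2, 2.48 and 6.55 FPKM (log2 fold change -4.75, SE 0.77, adjusted p = 0.00739).

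The other named members of the cluster also fell. TCONS_00037860, opposite to Hist1h2bk, overlaps the protein-coding histone genes H4c9 and H2ac11 on its own strand. It had 20.01, 11.8 and 34.3 FPKM in the controls and was at 0, 1.35 and 0 FPKM after irradiation (log2 fold change -6.37, adjusted p = 0.00712). TCONS_00034655 is filed under Prss16, the thymus-specific serine protease, but overlaps histone genes. Its controls had 106, 50.2 and 6.46 FPKM and its irradiated libraries 1.85, 0.310 and 0.459 FPKM (log2 fold change -5.42, adjusted p = 0.0122); summed with the other lncRNA-table transcripts of Prss16 the value was -1.57 and did not pass. TCONS_00037844, filed under Zfp184, fell from 59.9, 86.4 and 41.4 to 8.28, 2.89 and 4.77 FPKM (log2 fold change -3.60, adjusted p = 0.00305). TCONS_00034810, the other model at Hfe, had 63.9, 63.6 and 72.8 FPKM against 28.2, 0.425 and 4.32 FPKM. Its call (log2 fold change -4.05, adjusted p = 0.0488) was lost without any 1 of control replicates 1, 2 and 3 and irradiated replicates 2 and 3, and under 6 other settings, 3 of them scalings; its value was -2.58 without irradiated replicate 2. Histone genes resemble each other, so how reads were shared among them is uncertain.

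Between genes, TCONS_00096585 on chromosome 4 (12234997 to 12236797, plus strand) had 12.8, 11.8 and 11.6 FPKM in the controls and 0, 0 and 0.201 FPKM in the irradiated libraries. Its log2 fold change was -6.40 (SE 0.45, adjusted p = 0.000514). TCONS_00035376 on chromosome 13 (43962233 to 44002130, plus strand) was at 3.19, 2.80 and 3.12 FPKM in the controls and listed at 0 in all 3 irradiated libraries (adjusted p = 0.000272). TCONS_00061525 on chromosome 17 (45487406 to 45492844, plus strand) fell from 8.88, 8.17 and 8.997 to 0.547, 0.104 and 0.0929 FPKM (log2 fold change -4.90, adjusted p = 0.00139). In each of these the controls lay within a narrow range and no irradiated library came near it.

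**Figure D2:**
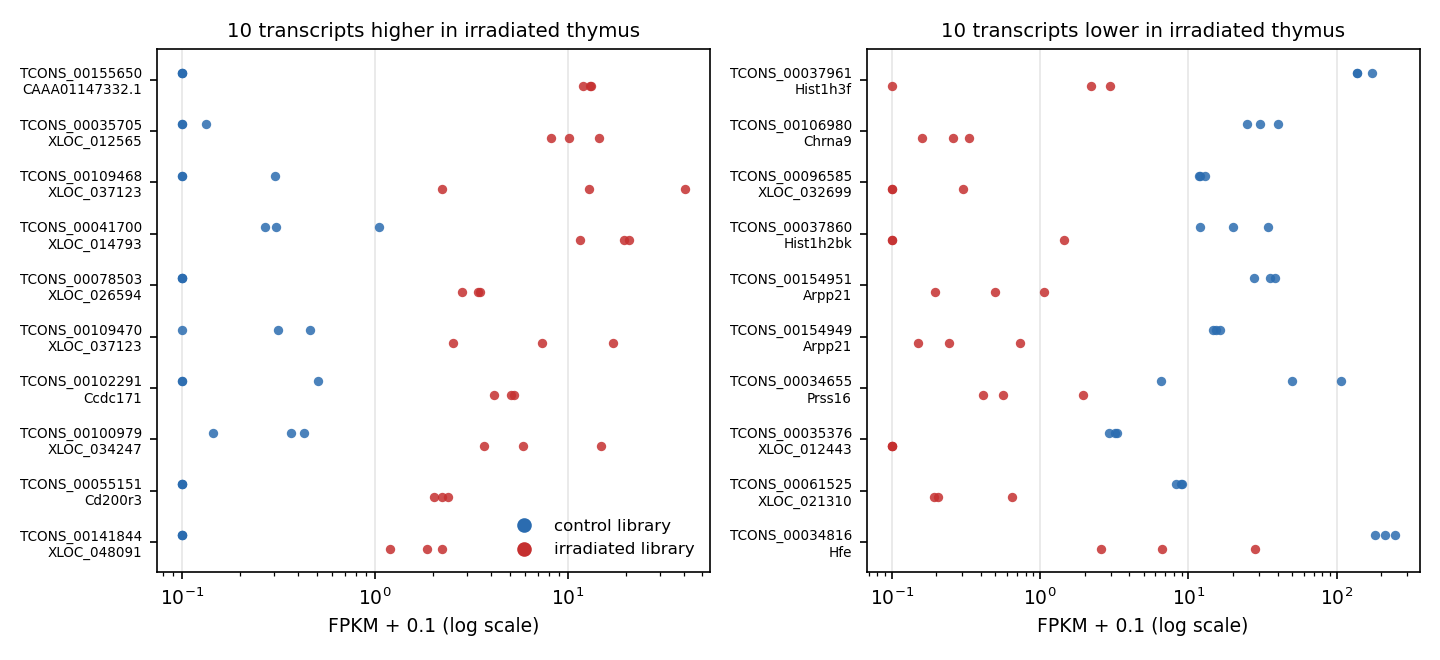
FPKM + 0.1 (log axis) of the 10 transcripts with the largest increase and the 10 with the largest decrease after irradiation, 1 point per library, control in blue and irradiated in red. A value of 0 is drawn at 0.1, and the 3 control and 3 irradiated points of a row do not overlap because only transcripts with separate groups were chosen.

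The largest increases lay mostly between genes. TCONS_00155650 fills an unplaced sequence of 1973 bases from end to end on the minus strand and is filed under CAAA01147332.1. It was listed at 0 in all controls and had 12.95, 13.1 and 11.97 FPKM in the irradiated libraries (adjusted p = 5.9e-05). The rest of that gene showed the reverse, with 20.5, 24.7 and 19.7 FPKM in the controls and 0, 0 and 0.199 FPKM after irradiation. The gene's whole value, the sum of both, was 21.6 ± 2.65 against 12.7 ± 0.507 FPKM (log2 fold change -0.75, adjusted p = 0.00273). How reads were divided between the member and the rest is uncertain and was not tested.

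TCONS_00035705 lies on chromosome 13 (55184448 to 55189238, plus strand), 15689 bases from the growth factor receptor gene Fgfr4. It had 0, 0.0334 and 0 FPKM in the controls and 8.12, 10.1 and 14.4 FPKM after irradiation, a log2 fold change of 6.60 (SE 0.32, adjusted p = 0.000139). TCONS_00078503 on chromosome 2 (75638377 to 75642886, plus strand) had at most 1e-06 FPKM in a control and 2.72, 3.42 and 3.35 FPKM after irradiation (log2 fold change 5.02, SE 0.30, adjusted p = 0.000273). TCONS_00055151 in Cd200r3, a CD200 receptor family gene, was listed at 0 in all controls and had 2.14, 1.93 and 2.31 FPKM after irradiation (adjusted p = 0.000467). None of these had a control value near an irradiated one.

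The 6 other large increases shared a shape: 2 exons, a span near 5 kb and a length under 1000 bases.
The pattern was noticed in the values, so the window of 4500 to 6000 bases was chosen after they were seen, and what follows is a description with no test. In all, 36 members at 22 loci on 11 chromosomes have this shape, with lengths of 365 to 979 bases and spans of 4696 to 5846 bases. Of these, 24 are intergenic, 12 lie opposite to a gene and 0 lie on a gene's own strand. Of the 34 tested, 24 passed as higher and 1 as lower, and their log2 fold changes had a median of 2.55; of all transcripts tested 9.15% passed as higher. The number higher was 20 to 25 under the settings that kept transcripts separate; summing to loci was not run for this set.

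Summed over the 36, control replicates 1 to 3 held 54.8, 51.4 and 61.8 FPKM and irradiated replicates 1 to 3 held 190, 207 and 310 FPKM. Every irradiated sum was above every control sum. The part of other cell types in this difference was not tested. Of the 36, 12 were listed at 0 in every control. The deposited reading frame was 65 to 69 codons in 12 of the 36, at 10 loci, and in 2 of the other 607 members; it was exactly 68 codons in 8 members at 6 loci. Only 3 of the 36 overlapped a RefSeq gene of their own strand. No genome sequence or repeat annotation was used here, so whether these loci are copies of one another was not tested; near-identical copies would share reads, and the split of FPKM between loci is uncertain for that reason.

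TCONS_00109468 (603 bases, chromosome 5, 135623626 to 135628961, plus strand) lies 3657 bases from Rhbdd2, a rhomboid family gene. It had 0, 0 and 0.204 FPKM in the controls and 2.14, 12.8 and 40.4 FPKM after irradiation, a log2 fold change of 6.19 (SE 1.00, adjusted p = 0.00737). The irradiated libraries differed widely, and irradiated replicate 1 was the lowest. TCONS_00109470 at the same locus went from 0.215, 0 and 0.361 to 2.45, 7.26 and 17.1 FPKM (log2 fold change 4.81, adjusted p = 0.00774). TCONS_00041700 (505 bases, chromosome 14, 32115303 to 32120472, plus strand) had 0.957, 0.209 and 0.170 FPKM in the controls and 20.8, 19.5 and 11.5 FPKM after irradiation. Here irradiated replicate 1 was the highest (log2 fold change 5.24, SE 0.54, adjusted p = 0.00182).

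TCONS_00102291 (528 bases, chromosome 4, 83536945 to 83541949, minus strand) lies in Ccdc171 on the opposite strand and went from 0, 0 and 0.411 to 4.07, 4.98 and 5.17 FPKM (log2 fold change 4.81, SE 0.63, adjusted p = 0.00411). TCONS_00100979 (504 bases, chromosome 4, 12133271 to 12138208, minus strand) went from 0.328, 0.268 and 0.0459 to 3.58, 5.76 and 14.8 FPKM (log2 fold change 4.59, adjusted p = 0.00415). TCONS_00141844 (440 bases, chromosome 8, 106676350 to 106681624, plus strand), 1444 bases from Tango6, was listed at 0 in the controls and had 2.14, 1.104 and 1.76 FPKM after irradiation (adjusted p = 0.00108). Models of this shape were also present in control thymus. Camk2b, a calcium-dependent kinase gene, has 4 of them on its opposite strand, and the 4 together had 27.9, 23.6 and 24.1 FPKM in the controls and 100.4, 101 and 99 FPKM after irradiation. The single member that fell was TCONS_00017491 on chromosome 11, from 12.6, 17.2 and 21.2 to 3.61, 1.39 and 3.04 FPKM (log2 fold change -2.69, adjusted p = 0.00537).

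**Figure D3:**
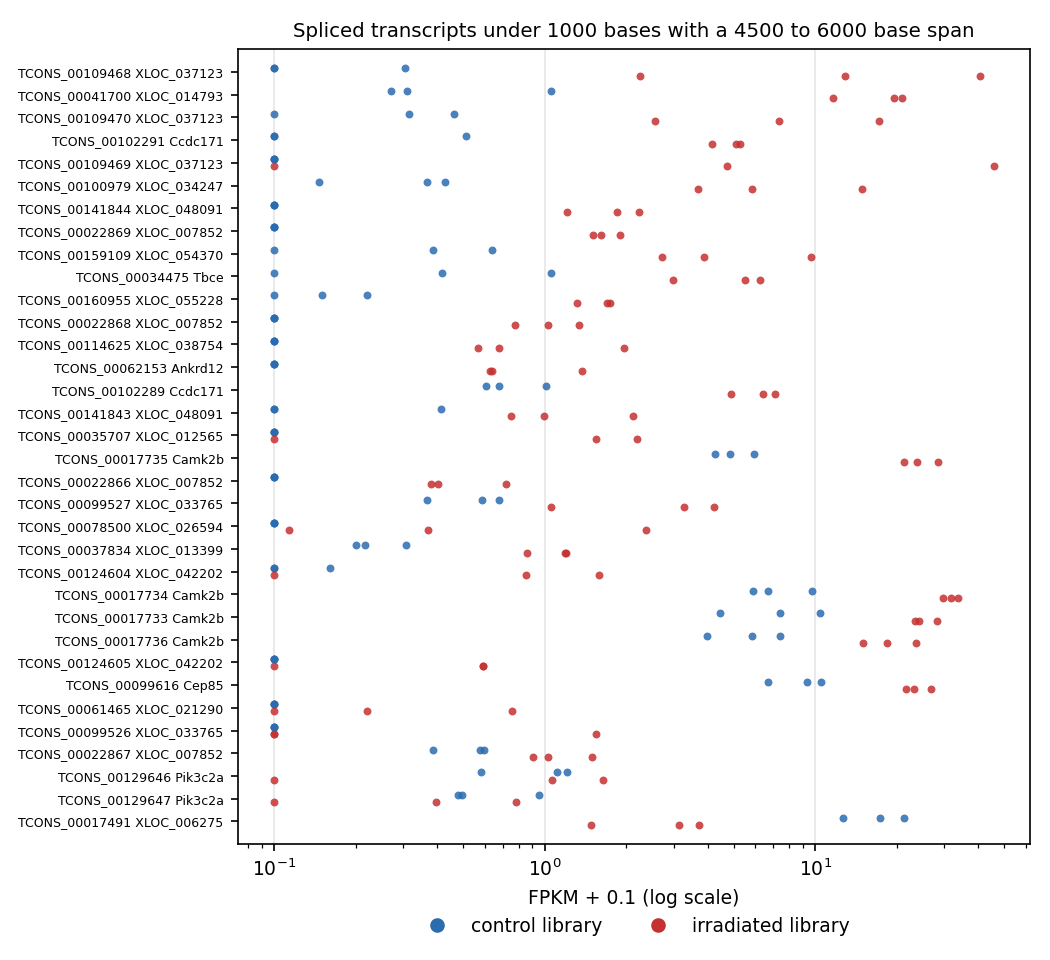
FPKM + 0.1 (log axis) in each control (blue) and irradiated (red) library of the 34 tested transcripts with 2 exons, a length under 1000 bases and a span of 4500 to 6000 bases, ordered by log2 fold change. Irradiated points lie right of control points in most rows, 24 of the 34 passed as higher, and the bottom row, TCONS_00017491, is the 1 that fell.

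Longer models with this span were counted together with the short ones, so the counts are not separate from those that prompted the window. Over all 70 tested members with a span of 4500 to 6000 bases, 30 passed as higher and 6 as lower. The short models were 34 of these 70, with 24 of those higher and 1 of those lower. Of all transcripts tested, 9.15% passed as higher and 15.6% as lower. Within intergenic and opposite-strand members the figures were 30 and 3 of 54 at this span and 21 and 49 of 146 at other spans. The same 34 short models lie among the 54, and a link of span with the change was not tested. TCONS_00035705 and TCONS_00078503, described above, have spans of 4791 and 4510 bases with lengths of 4753 and 4434 bases, so little of either stretch was spliced out. XLOC_012565, the locus of TCONS_00035705, also holds a spliced model of 460 bases, TCONS_00035707, at 0 in all controls and at 0, 2.09 and 1.45 FPKM after irradiation, which did not pass (adjusted p = 0.0942).

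**Figure D4:**
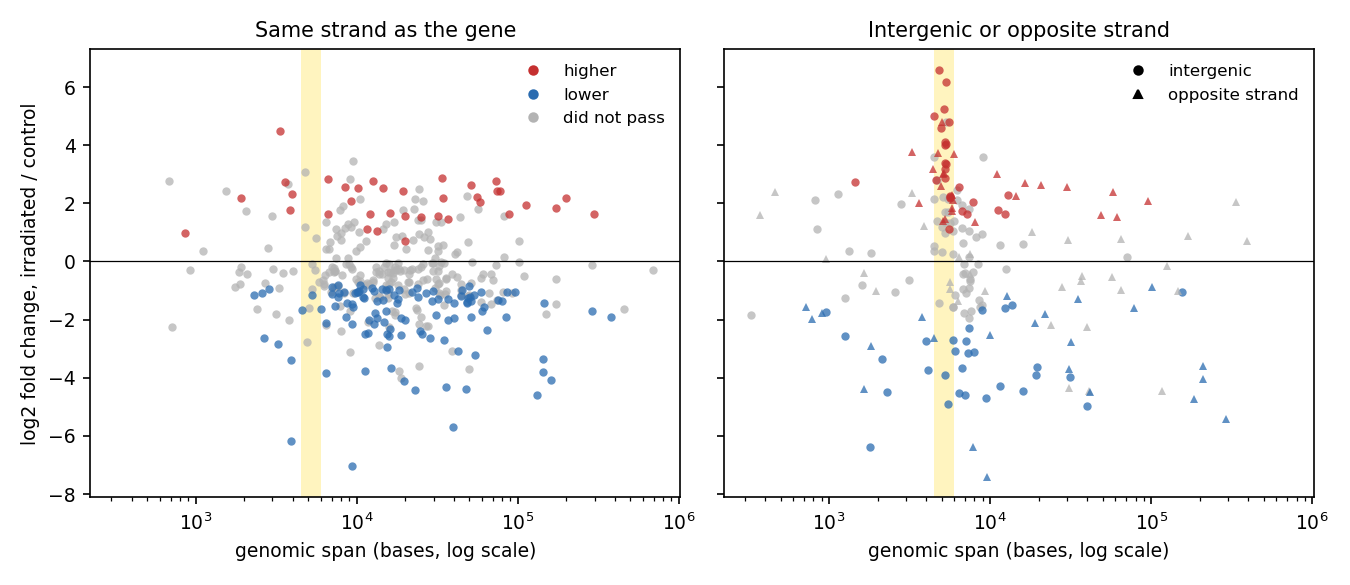
Genomic span (bases, log axis) against log2 fold change of tested transcripts on their gene's strand (left) and of intergenic (circles) or opposite-strand (triangles) transcripts (right), coloured by whether they passed as higher (red), lower (blue) or not (grey). The 23 on patch or unplaced sequence are left out; the shaded band marks spans of 4500 to 6000 bases, where 30 of the 54 points on the right passed as higher.

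The most abundant members were few and unlike each other. TCONS_00155342, a 2-exon model of 328 bases on an alternative sequence of chromosome 11, had 631, 405 and 465 FPKM in the controls and 836, 54.5 and 40.1 FPKM in the irradiated libraries. It did not pass (adjusted p = 0.193); the log2 fold change was -2.01 with all libraries, -3.39 without irradiated replicate 1, which passed, and -1.20 without irradiated replicate 3. TCONS_00029340, opposite to Nemf, had 825 FPKM in control replicate 2 and was listed at 0 in the other 5 libraries, and it spans Rn7s2, a gene for the RNA of the signal recognition particle. TCONS_00148884, filed under Ick and overlapping on the opposite strand Rn7sk, the gene of the 7SK small nuclear RNA, had 256, 284 and 218 FPKM in the controls and 161, 123 and 84.6 FPKM after irradiation. The groups did not overlap, but the change did not pass (log2 fold change -1.08, adjusted p = 0.0527); it passed without irradiated replicate 1, at -1.30.

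Of the other abundant members, TCONS_00025748 on chromosome 11, 506 bases from the helicase gene Dhx40, had 24.8, 28.1 and 36.6 FPKM against 35.2, 53.7 and 77.0 FPKM (adjusted p = 0.106). TCONS_00088525 on chromosome 3 had 17.5, 21.4 and 7.42 FPKM against 20.4, 72.9 and 115 FPKM (adjusted p = 0.0674). In both, the control range reached into the irradiated one through irradiated replicate 1, and without that library both passed, with log2 fold changes of 1.13 and 2.70. The longest members behaved differently from each other. TCONS_00066611 in Slc8a1, a sodium-calcium exchanger gene, rose from 0.743, 0.638 and 0.604 to 2.43, 2.75 and 3.44 FPKM (log2 fold change 1.95, SE 0.26, adjusted p = 0.00415). TCONS_00012527 in Btbd11 went from 0.829, 0.994 and 0.986 to 1.70, 1.42 and 1.60 FPKM without passing (adjusted p = 0.0778), though it passed under each other scaling. TCONS_00122958 in Foxp1, a lymphocyte transcription factor gene, had 4.44, 5.80 and 7.15 FPKM against 3.68, 0.516 and 2.73 FPKM (log2 fold change -1.63, adjusted p = 0.0998); it passed without irradiated replicate 1, at -2.13, and was -0.82 without irradiated replicate 2.

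Members of 1 locus passed in opposite directions at 2 loci. At least 2 members were tested at 95 loci: at 16 some rose and none fell, at 35 some fell and none rose, at 42 none passed, and at 2, Cep85 and Gm20388, members passed both ways. Only a locus with at least 2 passing members could pass both ways, so the loci with fewer could not show a disagreement. Models of 1 locus share sequence and reads, so they are not independent. At Cep85, a centrosomal protein gene, TCONS_00099616 on the opposite strand, one of the short models of 5 kb span, rose from 9.22, 6.61 and 10.4 to 21.5, 23.1 and 26.7 FPKM (log2 fold change 1.45, SE 0.25, adjusted p = 0.00888). TCONS_00104074 on the gene's own strand fell from 2.05, 2.31 and 2.65 to 0.399, 0.280 and 0.301 FPKM (log2 fold change -2.52, SE 0.27, adjusted p = 0.00215). Both moves separated the groups completely.

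The genes beside the members were read from the mRNA table, where 42.4% of 14001 genes tested passed as higher and 20.9% as lower, 63.2% in all. The 33 members named by the rule had 28 genes of that table as nearest genes within 100 kb, of which 26 were tested, and 9 rose and 10 fell; after quantile normalization 5 rose and 9 fell. These values are not independent of the members. For all 12534 genes present in both tables, the mRNA-table value was never below the summed lncRNA-table transcripts of the gene, by a tolerance of 0.001 FPKM, so a gene's value contains its noncoding transcripts. Over the 367 genes that hold members, the members made up a median of 12.6% of the gene value, over 50% in 32 genes and over 90% in 11. Subtracting the members and refitting the whole table was added after this was seen, and it left 9 genes higher and 8 lower.

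Subtraction turned the direction at 3 of these genes. Hfe as deposited went from 276, 311 and 257 FPKM to 64.9, 11.9 and 18.8 FPKM, a log2 fold change of -3.51 (SE 0.56, adjusted p = 0.00158). Without its 2 histone-cluster members it went from 1.20, 1.70 and 1.71 to 8.44, 9.02 and 7.95 FPKM, a log2 fold change of 2.40 (SE 0.20, adjusted p = 0.000132). Ick as deposited fell from 258 ± 32.8 to 129 ± 37.6 FPKM, and without its member it was 4.70 ± 0.566 against 6.41 ± 0.515 FPKM (log2 fold change 0.44, SE 0.16, adjusted p = 0.0482). Ccdc171 as deposited rose from 6.16 ± 0.248 to 15.1 ± 0.729 FPKM, and without its 2 members it was 5.35 ± 0.220 against 4.32 ± 1.02 FPKM, which did not pass (log2 fold change -0.33, adjusted p = 0.19). At Zfp184, 97.8% of the gene value was the histone-cluster member, and the rest, 0.829 ± 0.169 against 0.727 ± 0.307 FPKM, did not pass (adjusted p = 0.641). Nemf passed only without its member, at 21.7 ± 0.458 against 11.9 ± 3.83 FPKM (log2 fold change -0.91, adjusted p = 0.01).

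**Figure D5:**
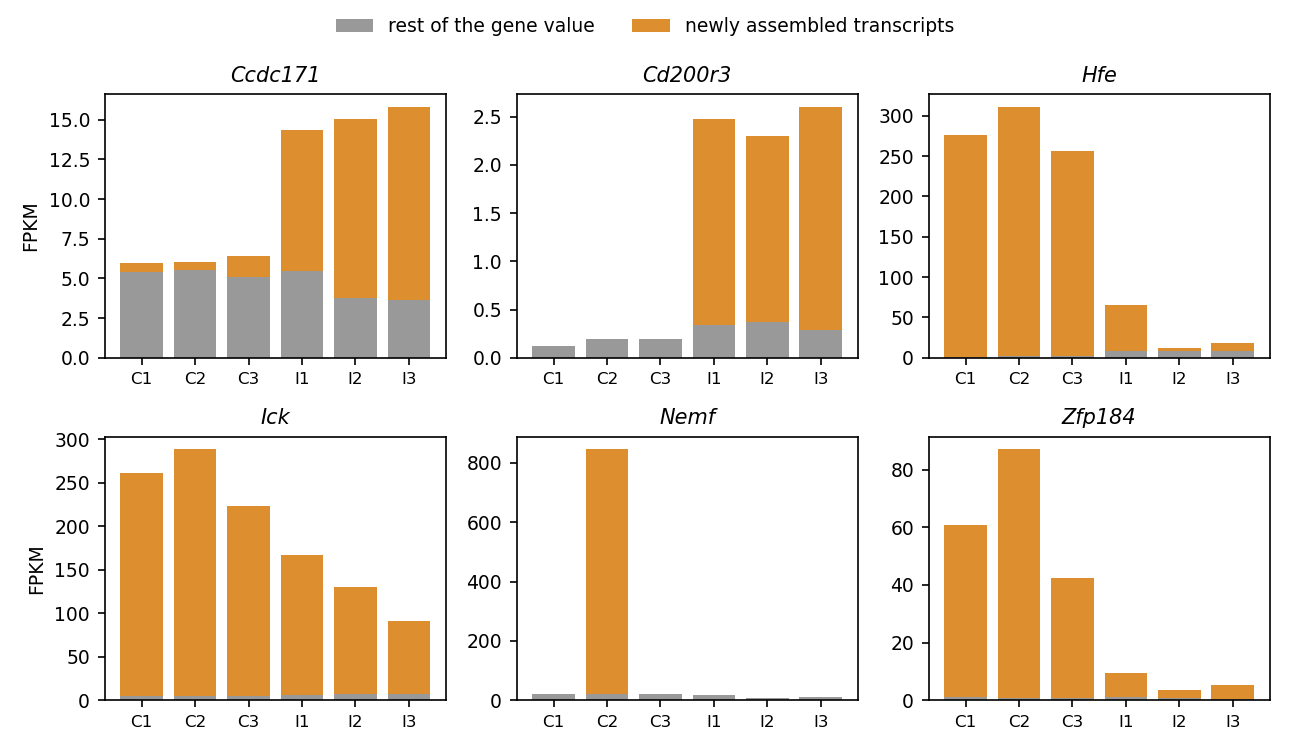
FPKM of 6 genes of the mRNA table in control (C1 to C3) and irradiated (I1 to I3) libraries, split into the newly assembled transcripts filed under the gene (orange) and the rest of its value (grey); these are the genes of named members with over 50% of their value in members, each panel with its own scale from 0. At Hfe the grey part is 1.20 to 1.71 FPKM in the controls and 7.95 to 9.02 FPKM after irradiation while the whole bar shrinks, and at Nemf the orange part is in control replicate 2 alone.

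Where members made up less of a gene, both parts are given side by side, and they come from the same libraries. The rest of the gene was tested for 465 tested members. Of these, 125 passed the same way as the rest and 19 the opposite way. Among the 75 of them on the opposite strand, these counts were 18 and 14. The examples below were picked and do not stand for these counts. Slc8a1 without its member rose from 3.18 ± 0.287 to 19.6 ± 3.29 FPKM (log2 fold change 2.57, SE 0.18, adjusted p = 7.06e-05). At Rad51b, a homologous recombination gene chosen after its values were seen, all 4 members on the opposite strand passed as higher; together they had 0.301, 0.182 and 0.381 FPKM in the controls and 3.96, 3.17 and 3.01 FPKM after irradiation. The rest of Rad51b went from 3.15, 2.97 and 2.50 to 1.54, 0.813 and 1.27 FPKM (log2 fold change -1.22, SE 0.29, adjusted p = 0.00821). At Cstf3, a gene of messenger RNA 3′ end processing also chosen in this way, the opposite-strand TCONS_00085851 rose from 0.212, 0.164 and 0.214 to 2.12, 1.37 and 2.10 FPKM (log2 fold change 2.70, SE 0.31, adjusted p = 0.00257). That model also overlaps the protein-coding gene Tcp11l1 on its own strand, and its part in the rise was not tested. The rest of Cstf3 fell from 23.8 ± 0.385 to 13.8 ± 0.897 FPKM (log2 fold change -0.79, SE 0.12, adjusted p = 0.00125). Whether the libraries kept strand is not given in the sources used here, so reads of a member and of the gene on its other strand may not be told apart.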

How the data were processed

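Thymus RNA of 3 control and 3 irradiated mice was analysed, grouped by the labels. The deposited lncRNA and mRNA tables hold FPKM values computed by the authors, 1 per library, plus their own test columns (log2 fold changes with p-values), and the submitters' processing notes name DESeq2 1.10.1. No assembler, aligner or strand setting is given in the sources used here. The lncRNA table has 53063 lines, of which 62 hold overflow text and were dropped. Places come from GENCODE M21, promoter windows from RefSeq. limma 3.58.1 (R 4.3.3) was fitted with a group term and an abundance trend on log2(FPKM + 0.1), over transcripts averaging at least 0.1 FPKM or mRNA-table genes averaging at least 0.5 FPKM, with Benjamini-Hochberg adjustment, and was tested on simulated data. The labels' replicate numbers did not pair the libraries.

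Members and lists were chosen with earlier results of these data known. Named are the members with the largest log2 fold changes, 10 higher and 10 lower, among those that passed, averaged 0.5 FPKM or more in one group and had separate groups; the 10 of highest mean, the 3 longest, the 3 of most exons and the 3 most abundant that did not pass; and genes within 100 kb. Others named were chosen after their values were seen. Alternatives varied pseudocount, filter, scaling, trend, block, unit and libraries. The marker lists also covered thymic epithelium, where 7 of 10 rose, skeletal muscle, 5 of 8, parathyroid, 2 of 2 tested, and B cells, where 1 of 5 fell. Depth was estimated from the smallest FPKM steps, and precision is limited by 3 libraries per group.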

Additional observations from a re-analysis of the deposited data

How the results depend on the processing

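The number of members that fell was 164, 103 under median-ratio scaling and 98 under quantile normalization; leaving out 1 library gave 78 to 205 lower and 63 to 113 higher. The replicate block gave 85 higher and 115 lower, and 31 and 66 among same-strand members; same-numbered libraries deviated with correlations of -0.0159, -0.0013 and 0.00278, so the numbers were not taken as pairing. All other settings kept both counts over all members within 1.5 times. Quantile normalization left 5 neighbouring genes higher in place of 9. Subtracting the members turned Hfe to 2.40, Ccdc171 to -0.33 and Ick to 0.44, since their values as deposited hold the members. Detected members averaged 503 in controls and 495.667 in irradiated libraries at 0.1 FPKM or more, and 369 and 334.333 at 1 FPKM or more. The irradiated share of the table was 2.45% without the most abundant member. For the 33 named transcripts, 495 alternative values kept direction and side of the threshold, 18 newly passed, 12 no longer passed and 0 reversed; 11 of the 12 were TCONS_00034810 and 1 was TCONS_00034655 summed to its locus (-1.57). Where an effect of a setting is given without a reason, the cause was not tested. Members under about 0.1 FPKM rest on few fragments and were not tested.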
